A study of Homo sapiens with 42 samples.

Results

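The clustered protocadherin genes are 3 neighbouring groups of genes, called alpha, beta and gamma, that lie side by side on human chromosome 5. They were taken as the entries of the table whose symbol is that of a numbered alpha, beta or gamma gene, which left out pseudogenes and gave 48 members (11 alpha, 15 beta and 22 gamma) of 30182 entries. RNA came from HAP1, a near-haploid human cell line derived from a chronic myeloid leukaemia line and grown attached to plastic. The tested cells carry a knockout label for 1 of the NEIL enzymes, glycosylases that cut oxidised bases out of DNA: NEIL1 in neil1, NEIL2 in neil2, NEIL3 in neil3, and the 3 together in neil123. They were set against wild type cells (wt). Each was given 200 µM buthionine sulfoximine (BSO), an inhibitor of glutathione synthesis, or media alone for 48 h, begun after 4 h. There were 3 neil1, 3 neil2, 4 neil3, 4 neil123 and 7 wt libraries per treatment, 42 in all. Replicate names came in 2 sets, with and without a final A or B: neil1, neil2 and 3 wt libraries per treatment were unlettered, and neil3, neil123 and 4 wt libraries per treatment were lettered. Each knockout was compared with wt of its own set. The names also separate lines: neil1 12 and 13, neil2 11 and 12, neil3 1 and 2, neil123 1 and 2, and wt 1.1, 1.3 and p1. That a shared number means a shared line or clone was read from the names and is not stated in the labels. The titles call the libraries biological replicates, except those of the unlettered wt libraries, which do not. No title says whether the libraries of a line came from separate cultures. The p-values therefore measure the spread between these libraries, which may be technical.

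Clustered protocadherins are cadherin-like adhesion proteins of the cell surface, best known from neurons, where each cell makes a few isoforms and neurites recognise those of their own cell. Each isoform starts at its own promoter. In the alpha and gamma groups a large variable exon is spliced to small exons that all isoforms of the group share, whereas a beta gene consists of its variable exon alone. Promoters are chosen at random or by cell lineage, through promoter methylation, the insulator protein CTCF and cohesin, while the C-type isoforms (PCDHAC1, PCDHAC2, PCDHGC3 to PCDHGC5) follow rules of their own. In bulk RNA, fewer cells that use a promoter and less RNA per cell cannot be told apart.

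On GRCh38 the members with symbols in GENCODE v29 spanned chr5:140794852-141012344 (alpha), chr5:141094578-141249365 (beta) and chr5:141330571-141512981 (gamma), all on the plus strand. Of a gene's exonic bases, 90.6% to 100% in the beta group lay in no other gene, against 43.4% to 78.7% in the alpha group and 35.6% to 72.4% in the gamma group. How reads in shared exons were counted is not given in the sources used here, so alpha and gamma levels are uncertain in size, as are beta genes where near-identical copies could share reads. RefSeq promoter windows of 250 bases before to 50 after the gene start were found for 43 of the 48 members, with 48 windows in all, and none was found for PCDHA3, PCDHB6, PCDHB11, PCDHGA12 and PCDHGC5. The promoters of PCDHB2, PCDHB3 and PCDHB5, the members that varied most between lines, and of PCDHAC1, which had the largest median difference with BSO, were chosen after their values were seen and are given 5′ to 3′ on the plus strand of GRCh38.p14. They lie at chr5:141094365-141094664, chr5:141100223-141100522, chr5:141134956-141135255 and chr5:140926049-140926348. Capitals mark the letters CGCT, known as the core of a conserved element of these promoters, or AGCG, the same on the other strand.
PCDHB2: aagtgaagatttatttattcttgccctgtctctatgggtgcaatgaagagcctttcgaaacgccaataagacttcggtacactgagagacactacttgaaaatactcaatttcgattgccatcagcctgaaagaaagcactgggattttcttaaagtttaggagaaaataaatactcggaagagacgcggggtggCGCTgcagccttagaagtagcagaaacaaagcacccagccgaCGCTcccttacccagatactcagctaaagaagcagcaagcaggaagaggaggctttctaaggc
PCDHB3: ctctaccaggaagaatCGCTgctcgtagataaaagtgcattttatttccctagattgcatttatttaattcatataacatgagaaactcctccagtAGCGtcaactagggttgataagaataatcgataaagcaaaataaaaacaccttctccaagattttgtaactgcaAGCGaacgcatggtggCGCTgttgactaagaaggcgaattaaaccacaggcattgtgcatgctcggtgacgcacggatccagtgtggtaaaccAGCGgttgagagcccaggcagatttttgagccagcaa
PCDHB5: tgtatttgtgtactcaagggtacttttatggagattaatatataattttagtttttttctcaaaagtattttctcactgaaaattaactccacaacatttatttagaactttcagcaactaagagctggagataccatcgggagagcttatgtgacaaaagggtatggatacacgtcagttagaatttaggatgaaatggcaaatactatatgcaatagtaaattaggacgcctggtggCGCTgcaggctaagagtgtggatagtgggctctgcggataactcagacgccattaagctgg
PCDHAC1: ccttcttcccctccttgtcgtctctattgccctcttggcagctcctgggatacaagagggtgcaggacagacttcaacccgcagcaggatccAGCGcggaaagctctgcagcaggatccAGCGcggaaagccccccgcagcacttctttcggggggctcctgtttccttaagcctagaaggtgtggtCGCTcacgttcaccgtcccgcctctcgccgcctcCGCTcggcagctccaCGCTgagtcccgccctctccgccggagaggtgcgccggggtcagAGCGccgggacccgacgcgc
CGCT or AGCG was in all 48 member windows, but also in 70.0% of the 35116 RefSeq windows of all genes. A longer word, TGGCGCTG, or its reverse complement CAGCGCCA, was held by 12 of 13 beta windows, 0 of 10 alpha windows, 2 of 25 gamma windows and 1.91% of all windows. The 2 gamma windows overlap, belong to PCDHGB4 and hold the word at the same site, on the antisense strand. The word was chosen after counting every 8-base word in the member windows. In PCDHB2, PCDHB3 and PCDHB5 it stood on the sense strand and began at bases -58, -67 and -14, with 0 as the first base of the gene, so the 3 most variable genes shared it with 9 other beta genes, among them PCDHB8, PCDHB10, PCDHB13, PCDHB15 and PCDHB16, which were also tested. A match is a description of the sequence only.

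Libraries held 27.2 to 30.9 M reads, of which 0.00418% to 0.0084% fell on the 48 members. Of the 48 members, 22 had a mean of 10 or more normalized reads over all libraries and were tested: 3 alpha, 9 beta and 10 gamma genes. The other 26 averaged 0.282 to 9.3 normalized reads (PCDHB9, at 9.3, fell just short, and PCDHGA1, at 10.6, just passed), and none of them went above 19.8 in any library. Those that passed did so partly through the groups in which they were high. In wt, 3 genes of each group led: PCDHAC2, PCDHA3 and PCDHAC1, PCDHB5, PCDHB13 and PCDHB14, and PCDHGA10, PCDHGC3 and PCDHGA11. Per kilobase of exon found in no other gene, wt media levels were 124 and 109 normalized reads in the unlettered and the lettered set for PCDHGC3, 76.7 and 65 for PCDHGA10, 68.4 and 56.9 for PCDHB5 and 19.6 and 16.6 for PCDHAC2. PCDHB13 came next in both sets, at 13.4 and 11.3, apart from PCDHGB2 at 11.5 in the lettered set.

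The library labels could be checked only in part. In media NEIL2 was lower in neil2 (log2 difference -0.82) and neil123 (-0.82), and NEIL3 was lower in neil123 (-0.60), each called by limma after Benjamini-Hochberg adjustment. NEIL1 averaged 386 ± 116 in neil1 and 355 ± 46.6 in wt (SD, n = 3 each), and NEIL3 averaged 520 ± 106 in neil3 and 640 ± 35.2 in wt (SD, n = 4 each). Neither passed the test. NEIL1 was higher in neil2 (562 ± 83.5 against 355 ± 46.6 in wt, SD, n = 3 each, log2 difference 0.66, adjusted p = 0.0142) and was not called in neil123 (987 ± 109 against 852 ± 92.2 in wt, SD, n = 4 each, adjusted p = 0.519). Where in these genes the mutations lie is not given in the labels. Of the HAP1 markers, ABL1 (557 to 1316) and BCR (705 to 1058) were present in every library, and of the 7 blood cell genes in the table, the white cell genes PTPRC, CD33 and CD38 and the erythroid gene GATA1 stayed at or below 2.92, 8.91, 22.3 and 2.07. The other 3 were higher, with the stem cell marker CD34 at 1.02 to 716, the transcription factor LYL1 at 4.96 to 122 and the transcription factor TAL1 at 79.0 to 1628. The sum of the 7 was 1653 to 2292 in neil1, 168 to 854 in neil2, 726 to 1571 in neil3 and 1498 to 1757 in neil123, against 1024 to 1412 in wt, and its part in the members' levels was not tested.

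Among the beta genes, PCDHB5 was the most abundant in wt and changed in opposite directions in the knockouts. It was lower in neil3, with 58.3, 42, 50.03 and 45.7 normalized reads in the media libraries 1A, 1B, 2A and 2B, against 207, 185, 188 and 195 in wt. With BSO the neil3 libraries held 57.5, 38.3, 58 and 40.7, against 175, 136, 196 and 185 in wt. Both neil3 lines were low to the same degree, and no neil3 library reached the lowest wt library in either treatment. The log2 difference was -1.97 ± 0.26 (SE, adjusted p = 8.13e-06) in media and -1.82 ± 0.26 (adjusted p = 5e-05) with BSO, where p is limma's over 14331 genes. With each line reduced to 1 mean it was not called (adjusted p = 0.14 and 0.296). PCDHB5 was the only member called in neil3, 1 of 22 in each treatment, while 0.44% of all tested genes were called in media and 0.405% with BSO.

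In neil123, PCDHB5 was higher: 731, 577, 702 and 652 in media, against the same wt values of 185 to 207, and 723, 559, 629 and 589 with BSO, against 136 to 196 in wt. The 2 neil123 lines had nearly equal means (648 in line 1 and 643 in line 2), and all 8 libraries lay above all 8 wt libraries. This was a log2 difference of 1.77 ± 0.26 (adjusted p = 1.45e-05) in media and 1.85 ± 0.26 (adjusted p = 6.8e-06) with BSO. With each line reduced to 1 mean the limma call held only narrowly (adjusted p = 0.0487 in media and 0.0386 with BSO). neil123 had the most members called of the 4 knockouts, 4 of 22 in each treatment and all higher (PCDHB5, PCDHB3, PCDHAC2 and PCDHGA9), while 5.34% of all tested genes were called in media and 8.09% with BSO. Of these, PCDHGA9 reached the mean needed for testing only through its neil123 libraries.

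neil1 also had more PCDHB5, to an extent that differed between its lines. In media, line 12 held 379 and line 13 held 728 and 679, against 205, 269 and 225 in wt. With BSO the values were 397 in line 12 and 666 and 589 in line 13, against 221, 252 and 222 in wt. All 6 neil1 libraries were above all 6 wt libraries. The log2 difference was 1.3 ± 0.29 (adjusted p = 0.0387) in media, the only member called of 22 (0.3% of all genes), and 1.21 ± 0.29 (adjusted p = 0.0807) with BSO. With BSO no member was called (0.202% of all genes). There 2 members had an unadjusted p under 0.05, as did 1418 of all 14331 genes. By edgeR's quasi-likelihood test the BSO difference was called (1 member, adjusted p = 0.043). The media call was lost without wt 1.1 (adjusted p = 0.262) or 1.3 (0.0835), without either media library of neil1 line 13 (0.137 and 0.142) and without line 13 (log2 difference 0.71, adjusted p = 0.348).

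In neil2 the lines parted. Line 11 held 516 and 467 in media and 546 and 488 with BSO, above all wt libraries (205 to 269), and line 12 held 203 in media and 175 with BSO, below all of them. Of all tested genes, 19.9% in line 11 and 20.3% in line 12 lay wholly above or below wt. PCDHB5 was not called in neil2 (395 ± 168 against 233 ± 32.8 in wt in media, SD, n = 3 each, adjusted p = 0.145). Without line 12 it was called in both treatments, with log2 differences of 1.08 and 1.15. Those fits rest on the libraries of line 11 alone, and line 12 was left out with its values known. Without line 11 the log2 difference was -0.19 in media and -0.40 with BSO.

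**Figure D1:**
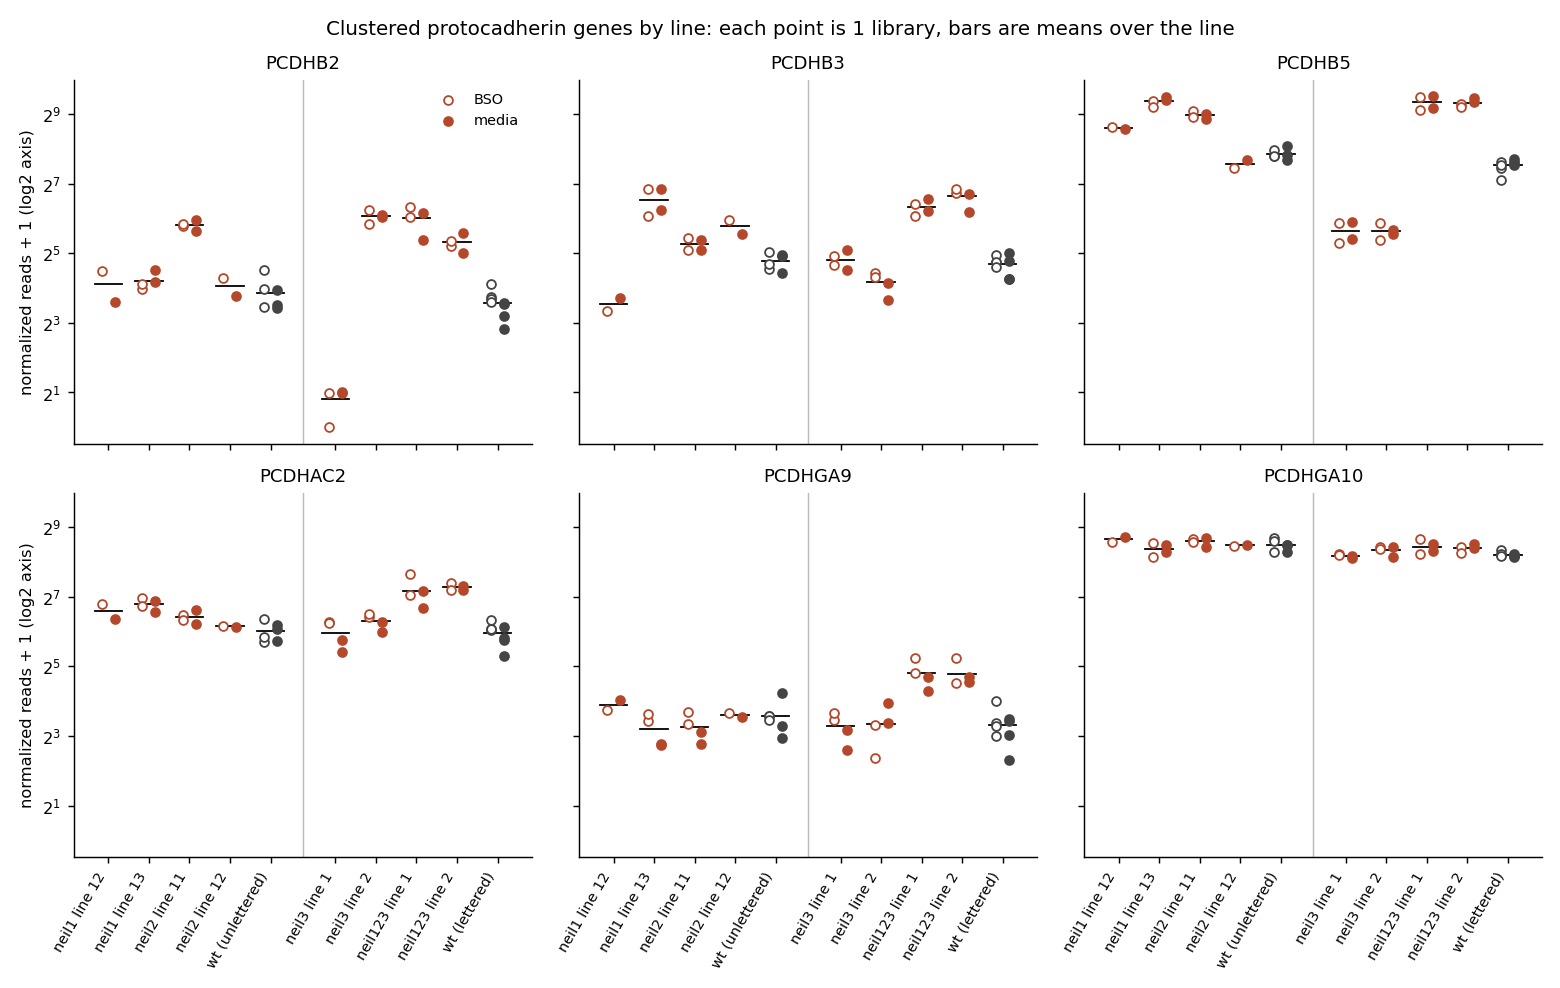
Normalized reads + 1 (log2 axis) of 6 members in every library, by line, with BSO libraries as open and media libraries as filled points and black bars at the mean of a line; knockout lines are red, wt libraries of the same label set dark grey, and the grey line parts the unlettered (left) from the lettered set. PCDHB2 lies at 0 to 1.01 reads in neil3 line 1 and at 56.6 to 75.7 in neil3 line 2, on either side of wt, whereas PCDHGA10 stays within 279 to 424 reads in all libraries.

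PCDHB2, near the start of the beta group, gave the widest spread between lines. In neil3 line 1 it had 1.01 and 0.999 normalized reads in media and 0 and 0.981 with BSO, that is 3 reads in 4 libraries. Line 2 of the same genotype had 64.6 and 67.0 in media and 75.7 and 56.6 with BSO. In wt of that set it had 8.15, 10.8, 6.07 and 10.8 in media and 12.5, 12, 11.07 and 16.5 with BSO, so the 2 neil3 lines lay on opposite sides of every wt library. Reads per library in line 1 were 0.0682 times those in wt (95% exact interval 0.0138 to 0.206) and in line 2 were 5.93 times those in wt (4.64 to 7.64). These intervals cover counting error only, and the library at 0 allows up to 3 reads. Taken as 1 genotype, neil3 averaged 33.4 ± 37.4 in media against 8.96 ± 2.29 in wt (SD, n = 4 each), and PCDHB2 was not called (adjusted p = 1.0). With line 2 left out it was lower in media by a log2 difference of -2.28 (adjusted p = 0.00499), and with line 1 left out higher by 2.78 (adjusted p = 0.000386). Each of those fits rests on libraries of 1 line.

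PCDHB2 was high in other lines too. It held 40.8 and 70.4 in media and 79.1 and 64.7 with BSO in neil123 line 1, and 47.4 and 31.5 in media and 36.0 and 40.2 with BSO in line 2, above all wt libraries. In neil2 line 11 it held 61.0 and 48.8 in media and 54.4 and 56.3 with BSO, while neil2 line 12 held 12.6 and 18.5, within the wt range of 9.72 to 21.8. Both neil1 lines were near wt, between 11.21 and 22.2. It was called in neither neil123 (log2 difference 2.26 ± 0.98, adjusted p = 0.204 in media) nor neil2 (1.5 ± 1.13, adjusted p = 0.417). The fit shares 1 estimate of the spread over all groups. For this gene that estimate takes in the parted lines of neil3 and neil2, so it does not measure the spread within neil123 alone.

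PCDHB3, the gene next to PCDHB2, was called higher in neil123. Media libraries held 93.6, 73.5, 104 and 72.2, against 18.3, 31.4, 18.2 and 26.6 in wt, and BSO libraries held 85.1, 65.8, 105 and 115, against 26, 29.96, 26.2 and 23.3 in wt. No neil123 library overlapped wt. PCDHB3 differed by 1.84 ± 0.48 on the log2 scale (adjusted p = 0.015) in media and 1.75 ± 0.48 (adjusted p = 0.0186) with BSO, neither of which was called with only 1 of the 2 lines kept (adjusted p = 0.0608 to 0.181) or with 1 mean per line (0.406 and 0.331). In neil1 the lines lay on opposite sides of wt: 12.2 (media) and 9.23 (BSO) in line 12, and 114 and 75 (media) and 113 and 66.8 (BSO) in line 13, against 20.7 to 31.7 in wt. The genotype as a whole was not called (67.0 ± 51.2 against 26.5 ± 5.05 in wt in media, SD, n = 3 each, adjusted p = 0.564). In neil2 both lines exceeded wt, with 33.2 to 42.5 in line 11 and 46.4 and 61.4 in line 12, and the difference was not called (0.58 ± 0.55 in media, adjusted p = 0.532). In neil3 line 2 PCDHB3 held 11.7 to 20.7, overlapping wt of its set at 18.2 to 31.4.

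The other beta genes varied less. The means of the 8 knockout lines relative to wt spanned 5.31 for PCDHB2, 3.71 for PCDHB5 and 3.17 for PCDHB3 on the log2 scale, each more than the span of the 14 single wt libraries (1.69, 0.98 and 0.77). Across the other 6 tested beta genes the line means spanned 0.84 to 1.76, and the wt libraries 0.93 to 1.80. Among these, PCDHB10 (1.76 against 1.66) and PCDHB8 (1.47 against 1.33) also spanned more over lines than over wt libraries, and the rest spanned less. Of the 22 tested members, 9 spanned more over lines, and the share over all genes was not computed. PCDHB13, second in wt, had 85.9 to 120 in neil1 line 13 and 54.0 and 55.4 in line 12, against 58.3 to 72.9 in wt, so that these lines too lay on opposite sides of wt. PCDHB13 was not called in any knockout. Of all tested genes, 5.99% in line 13 and 21.5% in line 12 lay wholly above or below wt. In neil3 line 1 PCDHB13 held 78.6 to 111, against 38.5 to 84.5 in wt of its set. PCDHB14 averaged 29.4 ± 3.25 in neil1 and 24.6 ± 4.56 in neil2, against 37.3 ± 10.4 in wt in media (SD, n = 3 each), and was called in neither.

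**Figure D2:**
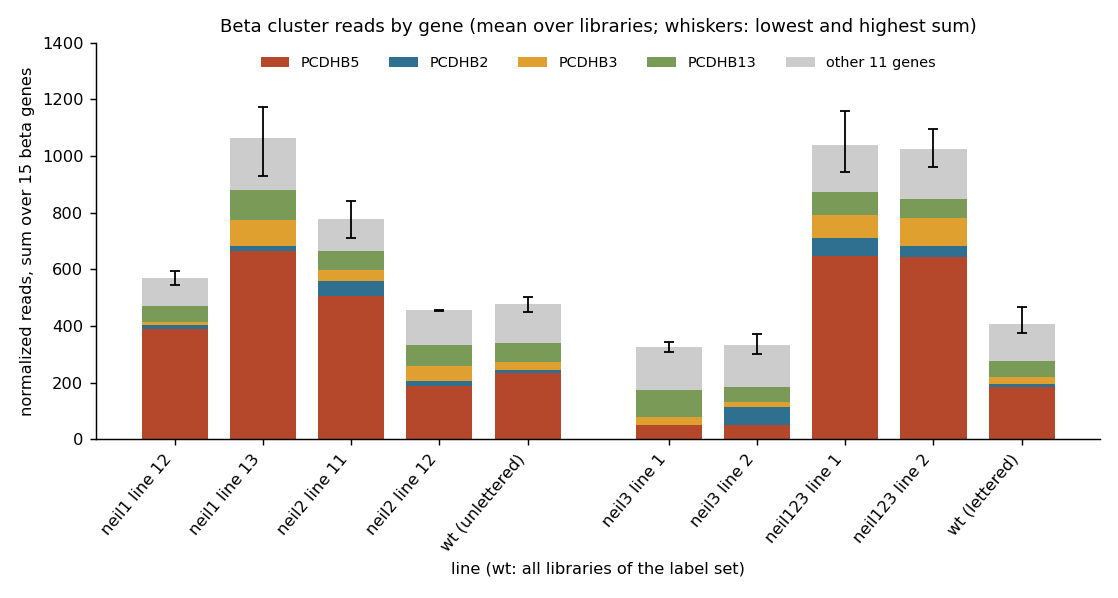
Normalized reads summed over the 15 beta genes in each line (bars, means over the libraries of a line, BSO and media together) and, in the last bar of each label set, in wt; colours give PCDHB5, PCDHB2, PCDHB3, PCDHB13 and the other 11 genes, and whiskers the lowest and highest sum. PCDHB5 takes a median of 61.7% and 63.0% of beta reads in the neil123 lines and 15.2% and 15% in the neil3 lines.

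The summed reads of the 15 beta genes were 299 to 373 in neil3 libraries and 943 to 1160 in neil123 libraries, against 375 to 466 in lettered wt libraries. They were 545 to 1172 in neil1 and 452.6 to 842.5 in neil2, against 450.1 to 503 in unlettered wt. PCDHB5 made up a median of 68.2% and 62.9% of beta reads in neil1 lines 12 and 13, 64.6% and 41.6% in neil2 lines 11 and 12, and 45.2% to 51.9% in the wt lines of both sets. Without PCDHB5 the sums were 249 to 315 (median 280.4) in neil3 and 309 to 441 (389.9) in neil123, against 187 to 282 (213) in lettered wt, and 166 to 507 (327.4) in neil1 and 245 to 297 (275) in neil2, against 226 to 262 (248) in unlettered wt. The neil3 sums thus lay below all wt sums with PCDHB5 counted, and overlapped them, at a higher median, without it. The gamma sums were 661 to 947 in knockout libraries, against 727 to 912 in wt libraries. The alpha sums were 169 to 333 (median 244) in neil123 and 108 to 169 (133) in neil3, against 88.2 to 188 (141) in lettered wt, and 139 to 218 (196) in neil1 and 135 to 159 (139.8) in neil2, against 114 to 150 (129) in unlettered wt. These sums were described and not tested.

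Of the alpha genes, PCDHAC2, a C-type isoform, was higher in neil123. Media libraries held 143, 101, 159 and 144, against 53.0, 38.2, 69.8 and 55.1 in wt, and BSO libraries held 199, 132, 168 and 145, against 65.6, 66.9, 79.5 and 66.0. The groups did not overlap in either treatment. The log2 difference was 1.34 ± 0.18 (adjusted p = 4.92e-06) in media and 1.19 ± 0.18 (adjusted p = 4.23e-05) with BSO, and the call held without either line (adjusted p up to 0.0026). It also held with 1 mean per line, at a limma adjusted p of 0.0108 in media and 0.0231 with BSO. All neil1 libraries also exceeded all unlettered wt libraries, with 81.5 to 124 against 51.1 to 81.3, but the difference was not called (log2 difference 0.60 in media, adjusted p = 0.233, and 0.86 with BSO, adjusted p = 0.0815). PCDHA3, which carries one of the ordinary alpha ectodomains, held 20.8 to 35.0 in neil3 line 2 and 34.3 to 56.3 in line 1, against 31.5 to 61.4 in wt, and no knockout was called.

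PCDHAC1, the other C-type isoform of the alpha group, was low in media in neil3 line 1, with 2.01 and 2.0, against 11.5 and 11.7 in line 2 and 5.88 to 22.3 in wt. With BSO the same line held 17.1 and 8.83, within the wt range of 9.99 to 34.2 or just under it. In neil123 it held 36.9, 18.6, 27.6 and 15.3 in media, against 7.13, 5.88, 22.3 and 11.8 in wt, which overlap (log2 difference 1.09 ± 0.47, adjusted p = 0.206). With BSO it held 63.1, 41.8, 51.5 and 52.3, against 27.1, 9.99, 34.2 and 19.4 in wt, with no overlap. That difference, 1.28 ± 0.47, was not called (adjusted p = 0.0942), but was called with all wt libraries and a set term (1.40, adjusted p = 0.0415), with no set term (1.53, 0.015) and at a pseudocount of 5 (1.12, 0.0409).

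Among the gamma genes, the 2 most abundant hardly differed between lines. PCDHGA10 and the C-type gene PCDHGC3 had line means, relative to wt of their set, within 0.33 and 0.31 of each other on the log2 scale. Single wt libraries of both sets spanned more (0.55 and 0.59), though single libraries vary more than means. PCDHGC3 lay at -0.15 and -0.26 in neil1 lines 12 and 13 and at -0.26 in both neil2 lines. In neil2 in media limma called it lower only with 1 mean per line (-0.33, adjusted p = 0.022). PCDHGA9 was the 1 gamma gene called in neil123. Its mean over all libraries was 12.8, and it reached the required 10 only through its neil123 libraries, where it was high. It held 24.9, 18.6, 24.7 and 22.4 in media, against 10.2, 9.80, 7.08 and 3.94 in wt, and 37.1, 27.1, 37.0 and 22.1 with BSO, against 9.38, 6.99, 15.1 and 8.74. The groups did not overlap. The log2 difference was 1.5 ± 0.33 (adjusted p = 0.00338) in media and 1.54 ± 0.33 (adjusted p = 0.00253) with BSO. The media call was lost without line 2 (adjusted p = 0.0615), and both calls with 1 mean per line (0.17 and 0.131).

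In neil2 both calls were in low gamma genes, 1 of 22 members in each treatment, while 11% of all tested genes were called in media and 15.8% with BSO, so the members' share was below that of all genes. PCDHGB2 was lower in media, with 11.6, 8.79 and 12.6, against 34.5, 21.6 and 22.4 in wt (log2 difference -1.16 ± 0.32, adjusted p = 0.0177). With BSO its values overlapped, 11.07, 22.7 and 11.7 against 28.5, 14.9 and 17.8. PCDHGA1 was lower with BSO, with 2.01, 4.94 and 6.82, against 17.7, 12.9 and 10.9 in wt (log2 difference -1.49 ± 0.44, adjusted p = 0.0199), and in media held 2.91, 8.79 and 6.77, against 12.5, 14.1 and 10.7. Both calls were lost without line 11 (adjusted p = 0.332 and 0.541).

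**Figure D3:**
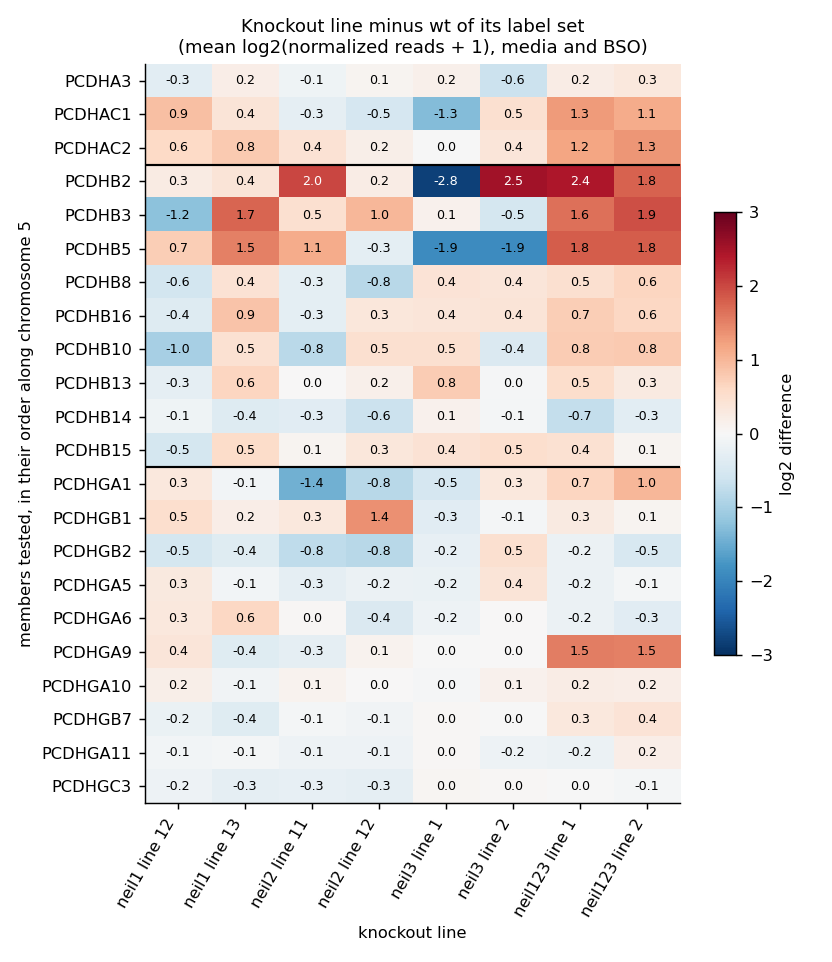
Mean log2(normalized reads + 1) of each knockout line minus that of wt of its label set, over BSO and media libraries, for the 22 tested members in their order along chromosome 5; red is higher and blue lower in the line, and black lines part the alpha, beta and gamma groups. PCDHB2, PCDHB3 and PCDHB5 hold the strongest colours, with opposite signs in the 2 neil3 lines for PCDHB2 (-2.79 and 2.52) and in the 2 neil1 lines for PCDHB3.

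To ask which isoforms each line turned on or off, a member was taken as switched in a line when every library of the line, BSO and media, lay above or below every wt library of its set and the mean of normalized reads plus 1 differed 4-fold. The rule is a description with no test. PCDHB2 was the only member it named: down in neil3 line 1, up in neil3 line 2 and up in neil123 line 1. That is 1 of 22 members in each of these lines, while the rule named 0.67%, 0.558% and 1.0% of all 14331 tested genes there. It named 0 members in neil1 lines 12 and 13 (0.761% and 0.321% of all genes), neil2 lines 11 and 12 (1.55% and 0.677%) and neil123 line 2 (1.12%). At a 2-fold difference it named 1 and 2 members in the neil1 lines 12 and 13 (PCDHB3 down in line 12, PCDHB3 and PCDHB5 up in line 13), against 2.69% and 1.12% of all genes. It named 3 in neil2 line 11 (PCDHB2 and PCDHB5 up, PCDHGA1 down) and 2 in line 12 (PCDHB3 and PCDHGB1 up), against 4.4% and 2.15%. It named 2 in each neil3 line (PCDHB5 down in both, with PCDHB2 on either side), against 1.86% and 1.24%. In the neil123 lines it named the same 5 members (PCDHB2, PCDHB3, PCDHB5, PCDHAC2 and PCDHGA9, all up), against 2.82% and 2.84%. Between wt 1.3 and wt 1.1 of the lettered set the rule named 0 members at 4-fold and at 2-fold (0.0% and 0.0907% of all genes). These wt libraries were closer by letter than by line name in both treatments. With BSO, chi-square per degree of freedom was 2.60 between 1.1A and 1.3A and 3.66 between 1.1B and 1.3B. It was 8.81 between 1.1A and 1.1B and 7.42 between 1.3A and 1.3B. How far separate lines differ therefore cannot be read from the wt comparison.

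PCDHAC1 had the largest median BSO difference over pairs of the 22 tested members. Its levels were higher with BSO than in the media library of the same replicate name in 20 of 21 pairs, the exception being a pair of neil2 line 11 (11.07 with BSO and 14.5 in media), and the median log2 difference over pairs was 1.12. Of all 14331 tested genes, 6.17% were higher in 20 or more pairs. In neil3 it held 17.1, 8.83, 40.4 and 33.7 with BSO, against 2.01, 2.0, 11.5 and 11.7 in media. The log2 difference was 1.87 ± 0.47 (adjusted p = 0.0111), and with the replicate name as a block 1.87 ± 0.28 (adjusted p = 7.36e-06). The unblocked call was lost without media 1A or 1B or BSO 2A or 2B (adjusted p = 0.0537 to 0.0706). In neil1 it held 34.9, 25.4 and 29.6 with BSO, against 14.3, 7.71 and 9.49 in media, with no overlap. In neil123 it held 63.1, 41.8, 51.5 and 52.3, against 36.9, 18.6, 27.6 and 15.3, again with no overlap. The wt values were 8.91 to 34.2 (median 17.8) with BSO, against 5.88 to 22.3 (median 7.78) in media, which overlap. These differences were called only with the replicate block: 1.46 ± 0.32 in neil1 (adjusted p = 0.00249, 0.254 without the block), 1.12 ± 0.28 in neil123 (0.0066, 0.351 without) and 0.69 ± 0.21 in wt (0.01, 0.21 without). In neil2 the values were 11.07, 11.8 and 10.7 with BSO, against 14.5, 3.91 and 5.80 in media, and it was called in neither fit.

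**Figure D4:**
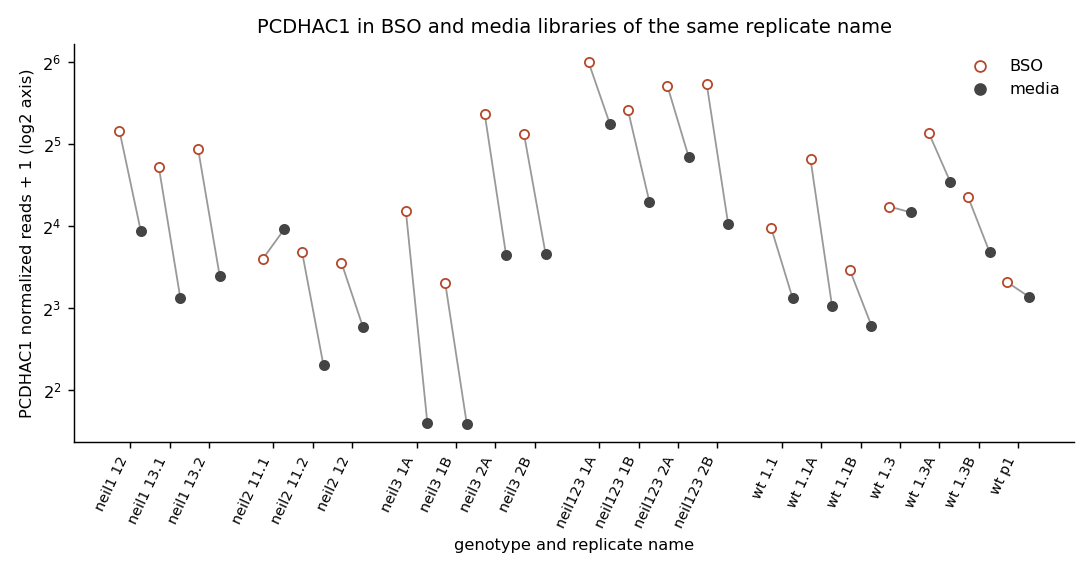
PCDHAC1 in normalized reads + 1 (log2 axis) with BSO (open points) and in media (filled points), joined for libraries of the same genotype and replicate name. It lies higher with BSO in 20 of 21 pairs, the first pair of neil2 being the exception.

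Without the block, BSO called 2 of 22 members in neil3, PCDHAC1 and PCDHB15, while 6.64% of all genes were called. It called 0 in wt (14.5% of all genes), 0 in neil1 (1.29%), 0 in neil2 (0.174%) and 0 in neil123 (1.7%). At an unadjusted p under 0.05 it gave 3 members in wt (3925 of all 14331 genes), 3 in neil1 (1506), 0 in neil2 (1216) and 2 in neil123 (1517). With the block the members called were 3 in neil3 (24% of all genes), 3 in wt (35.4%), 1 in neil1 (11%), 0 in neil2 (8.46%) and 1 in neil123 (11.7%), so the share of all genes called went up as well. PCDHB15, a beta gene, held 28.2, 22.6, 16.6 and 25.8 with BSO in neil3, against 6.04, 12, 13.5 and 10.7 in media (1.1 ± 0.29, adjusted p = 0.014, 0.0064 with the block). The call without the block was lost without BSO 1A or media 1A (adjusted p = 0.0542 and 0.0902). PCDHB15 was higher with BSO in 18 of 21 pairs, where 12.6% of all genes were higher in 18 or more. The block also gave PCDHAC2 in neil3 (0.49 ± 0.14, adjusted p = 0.0082) and, in wt, PCDHB16 (0.70 ± 0.23, adjusted p = 0.0173) and PCDHGC3 (-0.17 ± 0.05, adjusted p = 0.0126). Of the beta genes that set the lines apart, none of PCDHB2, PCDHB3 and PCDHB5 was called with BSO in any genotype, with or without the block. The log2 difference of PCDHB5 was -0.09 to -0.02 in the knockouts and -0.10 ± 0.19 in wt, that of PCDHB3 -0.18 to 0.23 in the knockouts and 0.10 ± 0.36 in wt, and that of PCDHB2 -0.26 to 0.19 in the knockouts and 0.44 ± 0.74 in wt. The BSO change in a knockout minus that in wt was called for 0 of 22 members in each of the 4 knockouts, and for 0.0% of all genes, by limma without the block and, for the members, by edgeR. With the block it was again called for 0 members, while 2.21% of all genes were called in neil1, 10.4% in neil2, 0.0% in neil3 and 0.0349% in neil123. Without the block, at an unadjusted p under 0.05, it gave 0 members in neil1 (944 of all 14331 genes), 1 in neil2 (1468), 1 in neil3 (124) and 0 in neil123 (255).

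Genes around the members were counted from lists. Of 25 tested regulators of protocadherin promoters and chromatin, 8 were lower in neil2 in media and 0 higher, where 11% of all genes were called: CTCF (-0.19), the cohesin subunit SMC1A (-0.15), the cohesin loader NIPBL (-0.25), the cohesin regulators PDS5A (-0.16) and PDS5B (-0.36), the chromatin repressor SMCHD1 (-0.27), the DNA methyltransferase DNMT3A (-0.28) and the dioxygenase TET3 (-0.40), all as log2 differences. With BSO neil2 had 4 lower, where 15.8% of all genes were called: CTCF (-0.20), the corepressor TRIM28 (-0.23), the methylation maintenance factor UHRF1 (-0.23) and the histone methyltransferase EHMT2 (-0.28). The median of the list was -0.145 in media and -0.019 with BSO, beside 0.015 and 0.008 over all genes. In neil1, neil3 and neil123, 0 of the 25 regulators were called, where 0.202% to 8.09% of all genes were. BSO against media called 2 of the 25 regulators higher and 7 lower in wt, where 14.5% of all genes were called, and 0 in each knockout. Of 20 tested chromosome 5 genes near the clusters, only FCHSD1 was called against wt, higher in neil2 in media (0.45). BSO against media called 2 of these 20 higher and 3 lower in neil3 (6.64% of all genes called) and 1 higher in neil123 (1.7%). It called 0 in neil1 (1.29%) and neil2 (0.174%), and 3 higher and 1 lower in wt (14.5%). Of 8 tested nonclustered protocadherins, PCDH11X was higher in neil2 (133 ± 30.7 against 34.3 ± 20.6 in wt, SD, n = 3 each, adjusted p = 0.0162) and neil123 (111 ± 34.9 against 37.2 ± 20.3 in wt, SD, n = 4 each, adjusted p = 0.0443) in media, and with BSO in neil2, neil3 and neil123. PCDH1 was lower in neil2 with BSO (-0.43, adjusted p = 0.0133). Of 6 tested classical cadherins CDH3 was higher in neil2 (2.45 in media). Of 23 partners and processing genes, which include the WAVE complex that binds protocadherin tails and the gamma-secretase that cleaves them, the receptor kinase RET was higher in neil123 (0.90 in media), and in neil2 APH1A was higher (0.15) and CYFIP2 lower (-0.34) in media. Single genes of the lists for other cell types were called against wt in media in neil2, neil3 and neil123, where 11%, 0.44% and 5.34% of all genes were called, and 0 in neil1. Of 8 tested neural genes, PAX6 (-1.81) and SYP (-0.63) were lower in neil2 and NES was higher in neil123 (1.22). Of 6 tested epithelial and mesenchymal genes, EPCAM was lower in neil2 (-1.96) and neil123 (-2.12) and KRT8 was higher in neil2 (2.16). Of 3 tested blood genes, TAL1 was lower in neil2 (-1.57) and LYL1 in neil3 (-2.10). The HAP1 fusion partners ABL1 (0.72) and BCR (0.21) were both higher in neil123. The part of any of these genes in the members' levels was not tested.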

How the data were processed

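The deposited table holds normalized signal, not raw counts: per the submitters' processing notes, the authors trimmed reads with Trim Galore, aligned them to GRCh38 (hg38) with HISAT2, handled them with SAMtools, counted them per gene with featureCounts and normalized them with DESeq2. No source used here gives the versions or the strand setting, so reads of antisense genes cannot be told apart. Total RNA was purified with a column kit, per the labels' protocols. Whole reads were recovered from the values' steps for 100% of them (relative tolerance 1e-06), with 1 read worth 0.941 to 1.04. Libraries held 27.2 to 30.9 M reads, and no replicates agreed within counting noise (the lowest chi-square was 2.6 and the highest 28.9 per degree of freedom). Of the 30182 entries, 20515 had a symbol; the 9667 others (0.868% to 1.25% of reads) stayed out of the tests.

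Values were analysed as log2(value + 1), which understates changes of low genes, over 14331 genes that have a symbol and average at least 10. limma 3.58.1 (R 4.3.3) with an intensity trend used the 42 libraries together, 12 group means (genotype, treatment and label set) sharing 1 spread. Benjamini-Hochberg adjusted p under 0.05 over all 14331 genes was a call. The alternatives were other pseudocounts and filters, equal column totals, edgeR 4.0.16 with TMM on whole reads, blocks, other uses of the label sets, 1 mean per line, and libraries or lines left out. On counts simulated for neil3 against wt in media, over 14331 genes, the fit recovered 92.5% of 1.5-fold, 94.0% of 2-fold and 100% of 4-fold changes. The simulated libraries were independent, with the same dispersion for every gene and no differences between lines. Recovery for genes that vary between lines, such as PCDHB2, was not tested.

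Every BSO library has a media library of the same replicate name, taken as its pair. Deviations from the group means correlated with r = 0.193 to 0.849 over 21 pairs, lowest in wt (0.193 to 0.426), so blocked values are given where they change a call.

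Named are members called in a comparison, switched in a line or among the 3 highest of their group in wt, and from the lists up to 4 genes called in a comparison of a knockout with wt and all regulators called in one. For BSO against media, the regulators and chromosome 5 genes called are counted and not named. PCDHB16, PCDHGB1, ABL1, BCR and the blood cell genes are named beside them. The members and the lists were chosen with earlier results of these data known.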

Additional observations from a re-analysis of the deposited data

Results flagged for a closer look

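In 3 of 102 groups of 4 libraries, over 17 members, 1 library stood far from the other 3, where chance marks about 1 in 20 groups. PCDHAC2 was at 79.5 normalized reads in wt 1.3A with BSO, against 65.6 to 66.9 in the other wt libraries of that group. PCDHB13 was at 51.9 in neil123 2B in media, against 77.0 to 81.7 in the others. PCDHGA10 was at 345 in neil3 2A in media, against 279 to 289 in the others.

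In some members every library of 1 line lay above wt and every library of another line below it, as log2 ratios of means plus 1. Such separation from wt, to either side, was common among all tested genes. Its share was 21.5% and 5.99% in neil1 lines 12 and 13, and 19.9% and 20.3% in neil2 lines 11 and 12. It was 5.12% and 4.21% in neil3 lines 1 and 2, and 9.8% and 10.1% in neil123 lines 1 and 2. PCDHB2 was at -2.78 in neil3 line 1 and 2.48 in neil3 line 2. PCDHB3 was at -1.23 in neil1 line 12 and 1.76 in neil1 line 13, and PCDHB13 at -0.27 and 0.66 in the same lines. PCDHB5 was at 1.11 in neil2 line 11 and -0.29 in neil2 line 12. Between genotypes, PCDHB5 was at -1.88 and -1.89 in neil3 lines 1 and 2 and at 1.81 and 1.80 in neil123 lines 1 and 2. The difference between the lines of a genotype, or between neil3 and neil123, was not tested.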

How the results depend on the processing

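Members called against wt changed as follows. For neil1 in media (1 called), equal column totals gave 0, no label set term 2, 1 mean per line 0, without line 12 2 and without line 13 0. For neil2 in media (1), a mean of 50 or more gave 0, no set term 2, 1 mean per line 2, without line 11 0 and without line 12 2. For neil3 in media (1), 1 mean per line gave 0, without line 1 2 and without line 2 3. For neil123 in media (4), a mean of 50 or more, 1 mean per line and leaving out line 2 each gave 2. With BSO, neil1 (0) gave 1 with an additive set term, 2 with none, 1 by edgeR and 2 without line 12. neil2 (1) gave 0 at a mean of 50 or more, 2 with no set term, 0 without line 11 and 2 without line 12. neil3 (1) gave 0 with 1 mean per line, 3 without line 1 and 2 without line 2, and neil123 (4) gave 2 at a mean of 50 or more, 2 with 1 mean per line, 5 at a pseudocount of 5, with no filter and with either other use of the wt sets, and 3 without either line. For BSO against media, the replicate block gave 3 in wt (0 without it), 1 in neil1 (0) and 1 in neil123 (0), while the genes called in all were 5072 with it and 2079 without it in wt, 1581 and 185 in neil1, and 1673 and 244 in neil123. It changed no member count of the BSO change in a knockout minus that in wt. A mean of 50 or more gave 0 in neil3 (2). By the switch rule, 2-fold gave 1, 2, 3, 2, 2, 2, 5 and 5 members in neil1 lines 12 and 13, neil2 lines 11 and 12, neil3 lines 1 and 2 and neil123 lines 1 and 2, 8-fold gave 0 in both neil3 lines and neil123 line 1, and media alone gave 1 in neil2 line 11, 2 in neil3 line 1 and 1 in neil123 line 2.

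Leaving out 1 library at a time gave 0 to 1 members in neil1, 0 to 2 in neil2, 1 in neil3 and 3 to 4 in neil123 in each treatment, 0 to 3 for BSO in neil3 and 0 for BSO in the other genotypes. For single members, the alternatives were compared for each difference called or given with its own p. PCDHB2 in neil3 reversed with BSO (log2 difference -0.52) at a pseudocount of 5 (0.13), by edgeR (1.34), without line 1 (2.26) and without its library 1A or 1B (0.57 and 0.24, within -1.52 to 0.57 over all libraries left out), and in media (0.25) without line 2 (-2.28) and without its library 2A or 2B (-0.59 and -0.60, within -0.60 to 1.09). PCDHB3 in neil1 in media reversed without line 13 (-1.04), and PCDHB5 in neil2 without line 11 (-0.19 in media and -0.40 with BSO). In the other comparisons of a difference with its alternative, 34 lost their call, 27 gained one and 569 kept their side of the threshold. Depth limits the 26 members with a mean under 10, for which no difference was tested.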
